A study of Mus musculus with 4 samples.

Results

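The response of subcutaneous adipose tissue (SAT) to a high-fat diet (HFD) was described in mice with *Napepld* deleted in adipocytes, as the log2 level on the cKO-HFD array minus the log2 level on the cKO-CT array. These are 2 of the 4 arrays of the series, and each held RNA pooled from 4 to 5 mice that had been picked for the quality of their RNA, by the labels. The study's methods give the upper end of that range for every group. Both cKO groups were C57Bl6 mice of 16 weeks with the genotype AP2 Cre NAPE PLD lox/lox, in which Cre is driven by the *Fabp4* (aP2) promoter and removes the floxed *Napepld* allele. The cKO-CT mice ate the control diet AIN93M and the cKO-HFD mice ate D12492. The other 2 arrays, WT-CT and WT-HFD, held SAT of mice of the same strain and age that were NAPE PLD lox/lox without Cre, on the same diets. The diet difference in WT mice uses neither cKO array, so it is given beside the cKO values. With 1 pooled array per group the spread between mice was not seen and no test was possible. Genes were called higher or lower from a 1.5-fold difference in level. The study used that size for cKO-CT against WT-CT, after discarding probe sets detected in no group, a filter not applied here.

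White adipocytes take up fatty acids from circulating lipoproteins and also make them from glucose through cytosolic acetyl-CoA, a route that insulin and carbohydrate feeding switch on through the regulators SREBP-1c and ChREBP. Dietary fat is known to lower this synthesis. Subcutaneous fat of mice also holds beige adipocytes, which burn fatty acids in mitochondria uncoupled by *Ucp1*. During obesity the tissue expands, secretes more leptin, remodels its matrix and draws in macrophages. *Napepld* encodes the phospholipase that releases N-acylethanolamines, signalling lipids related to the endocannabinoids, from membrane phospholipids.

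*Napepld* itself had a log2 level of 7.78 on cKO-CT, 7.94 on cKO-HFD, 8.31 on WT-CT and 8.01 on WT-HFD. The 4 levels lay within 1.5-fold of each other and the diet difference within cKO was 0.16. Stromal, endothelial and immune cells of the fat pad keep the gene where the promoter is silent, and whether the probes lie in the floxed part is not known here, which leaves the deletion unchecked by these values. The tissue label was borne out by adipocyte markers: all 15 measured markers were above background on every array, and their median level was 12.25 on cKO-CT and 12.23 on cKO-HFD. *Adipoq*, the adiponectin gene, had levels of 12.66 and 12.70 on these arrays, and *Plin1*, which coats the lipid droplet, had 12.23 and 12.18. Background was taken as the 95th percentile of the 1027 *Olfr* (olfactory receptor) genes, which was 5.28 on cKO-CT and 5.50 on cKO-HFD. Because it was higher on cKO-HFD, genes near background drifted upwards: the median log2 ratio was 0.15 over the *Olfr* genes, of which 50 were called higher and 6 lower, against -0.09 over genes that reached a level of 7 on a cKO array.

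Of 19938 genes, 362 (1.82%) were higher on cKO-HFD than on cKO-CT and 432 (2.17%) were lower. In WT the same diet gave 631 higher genes (3.16%) and 532 lower ones (2.67%). Among genes above background on a cKO array, 162 were higher and 391 lower, and where a level of 7 was reached on a cKO array the counts were 70 and 243. The calls among well-expressed genes thus lay mostly on the lower side. The median log2 ratio over all genes was 0.02, and the robust SD of the ratios over genes was 0.24, which describes the spread of genes and is no error of a gene. Markers of skeletal muscle moved with the comparison, and their part in the results on other genes was not tested: the summed linear level of 37 skeletal muscle genes was 23095 on cKO-CT and 6026 on cKO-HFD, against 23408 on WT-CT and 70021 on WT-HFD. Of 25 pancreatic acinar genes, 8 were above background on cKO-CT and 7 on cKO-HFD, against 18 on WT-CT, so these genes touch the WT diet values more than the cKO ones. In bulk tissue, fewer cells of a type and less RNA per cell cannot be told apart.

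The genes that make fatty acids formed one of the lowest groups of the comparison. Of 19 measured genes of fatty acid synthesis, 11 were lower on cKO-HFD and none was higher, and their median log2 ratio was -0.67, against 0.02 over all genes. *Elovl6*, the elongase that extends palmitate to stearate, had a level of 11.27 on cKO-CT, 7.46 on cKO-HFD, 12.07 on WT-CT and 7.02 on WT-HFD. It was 13.9-fold lower on cKO-HFD (log2 ratio -3.80), the lowest ratio in cKO of any gene with a level of at least 7. *Acaca*, which encodes the acetyl-CoA carboxylase that makes malonyl-CoA, had levels of 10.95 on cKO-CT, 8.44 on cKO-HFD, 11.76 on WT-CT and 8.33 on WT-HFD. *Acly*, the ATP citrate lyase that supplies cytosolic acetyl-CoA, was 5.46-fold lower on cKO-HFD, where it stood at 8.38. Fatty acids are then assembled by the synthase *Fasn*, which had levels of 13.09 on cKO-CT, 11.45 on cKO-HFD, 13.36 on WT-CT and 10.74 on WT-HFD. For these 4 genes both HFD arrays lay below both CT arrays, and WT-CT was the highest.

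*Thrsp* (Spot 14), a lipogenic cofactor induced by carbohydrate, was 4.06-fold lower on cKO-HFD, with levels of 10.48 and 8.46 on the cKO arrays. *Acss2*, which activates acetate, was lower by a log2 ratio of -1.32 and *Acacb*, the acetyl-CoA carboxylase of the mitochondrial membrane, by -1.21. The transcription factors of the pathway were lower by less: *Mlxipl*, which encodes ChREBP, had a log2 ratio of -0.82 and *Srebf1*, which encodes SREBP-1, of -0.67. Desaturases and elongases were split. *Fads1*, the delta-5 desaturase, was lower by a log2 ratio of -0.86, whereas *Elovl5*, the elongase of polyunsaturated fatty acids, had -0.13. The stearoyl-CoA desaturases were not among the lower genes. *Scd1* had a level of 14.32 on cKO-CT and 14.14 on cKO-HFD, and *Scd2* had 10.42 on both.

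The WT diet difference was larger for this group: 15 of the 19 genes were lower on WT-HFD, their median log2 ratio was -1.34, and 17 of 19 had a ratio in cKO above that in WT. On cKO-CT, 5 of the 19 genes were lower than on WT-CT and none was higher, whereas between cKO-HFD and WT-HFD 15 of 19 lay within 1.5-fold and the other 4 were higher in cKO. The difference between the genotypes was not tested, as no group has a second array.

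**Figure D1:**
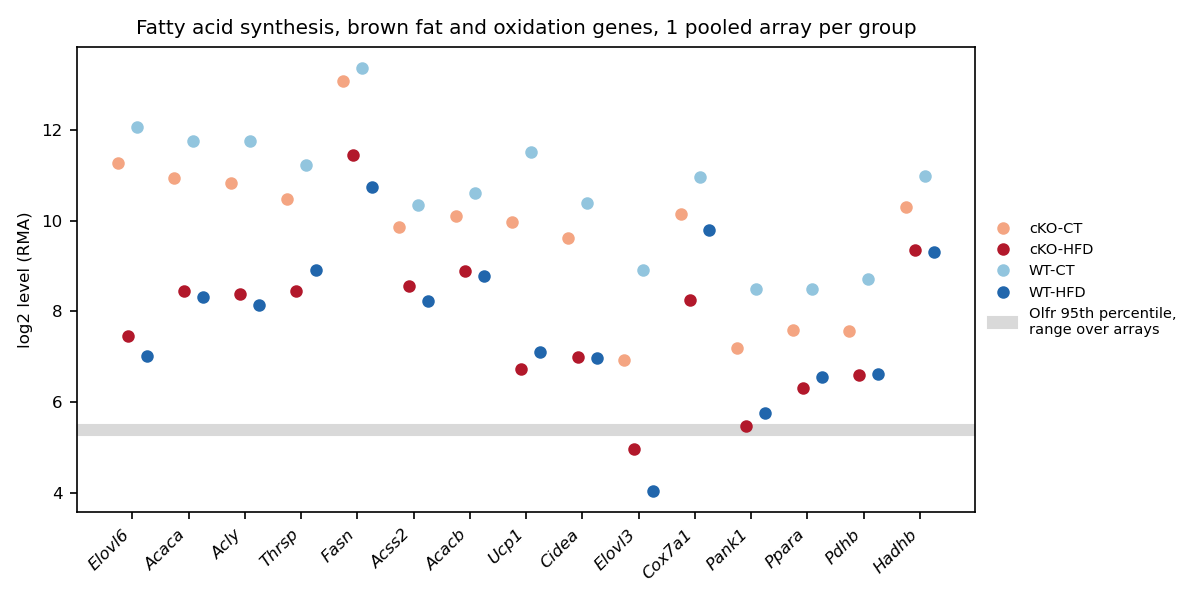
Log2 level (RMA) of 15 genes of fatty acid synthesis, brown fat and oxidation on the 4 arrays, 1 point per pooled array, with a grey band for the range over arrays of the 95th percentile of the *Olfr* genes. The points of both HFD arrays lie below both CT arrays for every gene shown, and WT-CT is the highest point of each.

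The promoters of these genes were read because the members moved together. In the 250 bases before the transcription start, searched on both strands, 6 of the 10 lower genes that have a window hold the letters CCAAT, the box that NF-Y binds beside SREBP: *Acacb*, *Acss2*, *Fasn*, *Mlxipl*, *Srebf1* and *Thrsp*. So do 4 of 6 other members of the list. Some genes have several windows: counted by window, the box is in 7 of 13 for the lower genes and 4 of 8 for the others. It is in 33.9% of all 32851 windows. The E-box letters CACGTG are in 1 of the 10 and in 2 of the 6 other members (6.02% of all windows). The sterol element TCACCCCAC is in 0 of the 10 (0.496%). A match is a description of letters and no evidence of binding, and some windows belong to a start site that fat may not use. The windows of *Fasn* and *Thrsp*, the pair with most copies of the box, are given from RefSeq (GRCm38.p6), 5′ to 3′ on the strand of the gene, with CCAAT or its reverse complement ATTGG in capitals. In *Fasn* (chr11:120824548-120824797, minus strand) the boxes start 90, 62 and 59 bases before the start site and the last pair overlap, and in *Thrsp* (chr7:97417551-97417800, minus strand) they start 79 and 52 bases before it.
Fasn: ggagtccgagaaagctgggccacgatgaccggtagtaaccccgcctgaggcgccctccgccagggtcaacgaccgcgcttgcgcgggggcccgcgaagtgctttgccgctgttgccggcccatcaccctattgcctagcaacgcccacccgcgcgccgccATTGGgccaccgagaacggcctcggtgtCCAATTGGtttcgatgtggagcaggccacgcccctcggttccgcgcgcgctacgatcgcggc
Thrsp: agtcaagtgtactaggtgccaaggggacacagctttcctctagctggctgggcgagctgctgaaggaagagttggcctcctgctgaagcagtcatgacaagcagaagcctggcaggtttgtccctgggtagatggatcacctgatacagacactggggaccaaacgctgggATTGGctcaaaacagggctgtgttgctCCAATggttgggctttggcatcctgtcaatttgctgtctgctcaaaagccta

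Beige and brown adipocyte genes were lower together with the synthesis genes. Of 23 measured, 13 were lower on cKO-HFD and none was higher, and the median log2 ratio was -0.63. Over the 19 members above background on a cKO array it was -1.08. All 19 were above background on cKO-CT but 14 on cKO-HFD. Some thus entered only through the array where they were high, which can lower this median by construction. *Ucp1*, the uncoupling protein, had a level of 9.96 on cKO-CT, 6.74 on cKO-HFD, 11.52 on WT-CT and 7.10 on WT-HFD. The 9.36-fold difference between the cKO arrays was the second lowest ratio among genes with a level of at least 7. *Cidea*, which enlarges lipid droplets in brown fat, had levels of 9.63 on cKO-CT, 6.99 on cKO-HFD, 10.38 on WT-CT and 6.97 on WT-HFD. *Elovl3*, the elongase of recruited brown fat, lay below background on both HFD arrays, and it was at least 2.71-fold lower on cKO-HFD than its level of 6.94 on cKO-CT. Other members also lay below background on cKO-HFD: *Mpzl2* was at least 2.73-fold lower, *Slc27a2*, a fatty acid transporter and acyl-CoA synthetase, at least 2.94-fold, and *Pank1*, a kinase of coenzyme A synthesis, at least 3.22-fold.

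The respiratory chain isoforms that mark brown fat behaved unequally between genotypes. *Cox7a1* had levels of 10.15 on cKO-CT, 8.26 on cKO-HFD, 10.96 on WT-CT and 9.78 on WT-HFD, so that its diet difference was -1.89 in cKO and -1.18 in WT. *Fabp3*, a fatty acid binding protein, had -1.62 in cKO and -0.81 in WT. Both are also expressed in skeletal muscle, whose markers were lower on cKO-HFD and higher on WT-HFD, and the part of muscle RNA in these differences was not tested. *Cox8b* had -1.08 in cKO and -1.48 in WT, and the part of muscle RNA in its values was not tested either. The regulators of the programme stayed closer to 0: *Ppargc1a*, the coactivator of mitochondrial biogenesis, had a log2 ratio of -0.55, and *Prdm16*, the brown fat determinant, had levels of 6.98 on cKO-CT and 6.90 on cKO-HFD. In WT, 15 of the 23 genes were lower and the median was -0.99. On the control diet 12 of the 23 genes were lower on cKO-CT than on WT-CT, and 19 of 23 lay within 1.5-fold between the HFD arrays.

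Fatty acid oxidation was lower by smaller amounts and across most of the pathway. Of 23 genes, 21 had a ratio below 0 and 8 were lower by at least 1.5-fold, with a median of -0.36. *Ppara*, the nuclear receptor that drives the pathway, had a level of 7.59 on cKO-CT, 6.31 on cKO-HFD, 8.50 on WT-CT and 6.55 on WT-HFD. *Ehhadh*, the peroxisomal bifunctional enzyme, had a log2 ratio of -0.97, while *Acadvl*, the very long-chain acyl-CoA dehydrogenase, and *Hadhb*, a subunit of the trifunctional protein, each had -0.95. In WT the median was -0.80 with 14 genes lower and 1 higher, and 22 of 23 genes had a ratio in cKO above that in WT. All 23 lay within 1.5-fold between cKO-HFD and WT-HFD.

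The mitochondrial pathways downstream showed the same direction. All 23 genes of pyruvate dehydrogenase and the citric acid cycle had a ratio below 0 (median -0.46), and 5 were lower by at least 1.5-fold. *Pdhb*, the E1 beta subunit of pyruvate dehydrogenase, had levels of 7.57 on cKO-CT, 6.59 on cKO-HFD, 8.71 on WT-CT and 6.62 on WT-HFD. *Pdha1*, its alpha partner, had a log2 ratio of -0.97, and the cycle enzymes *Idh3b*, *Suclg2* and *Sdha* had -0.76, -0.65 and -0.63. Of 43 oxidative phosphorylation genes, 40 were below 0 (median -0.32), and 6 were lower by at least 1.5-fold, led by *Ndufa1* of complex I (-0.72) and *Uqcrh* of complex III (-0.64). That count was 2 after cyclic loess and 3 after quantile normalization. Branched-chain amino acid breakdown, which feeds the cycle in adipocytes, had all 21 genes below 0 (median -0.30), of which *Hibch* alone passed 1.5-fold (-0.60), and it did not pass after cyclic loess or quantile normalization. In WT, 19 citric acid cycle, 26 oxidative phosphorylation and 4 branched-chain genes were lower. Genes at a level of at least 7 had a median ratio of -0.09 on the cKO arrays, against which these list medians are to be read.

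**Figure D2:**
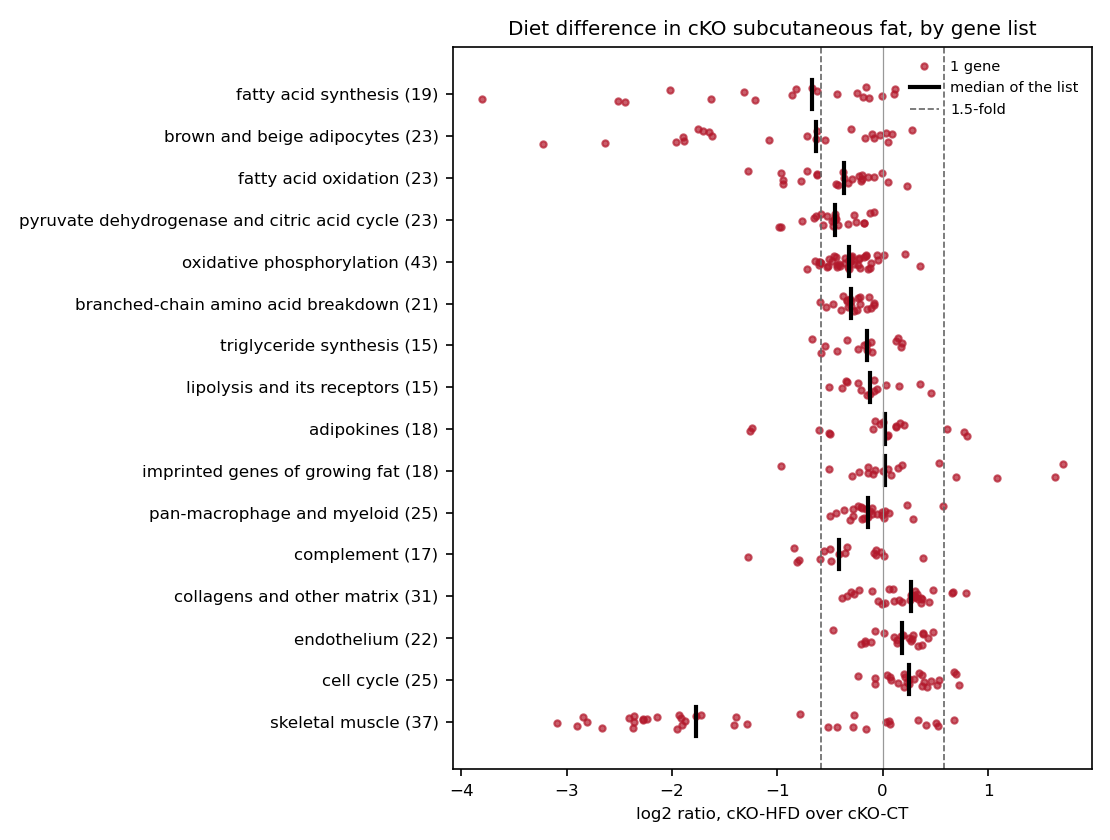
Log2 ratio of cKO-HFD over cKO-CT for the genes of 16 lists (number measured in brackets), 1 point per gene, with the list median as a black bar and 1.5-fold as dashed lines. Fatty acid synthesis (median -0.67), brown and beige adipocytes (-0.63) and skeletal muscle (-1.77) reach far to the left, the mitochondrial lists shift left by less, and matrix (0.27) and endothelium (0.19) lie to the right of 0.

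Storage and release of fat differed little between the cKO arrays. None of the 15 lipolysis genes passed 1.5-fold in either genotype, and their median was -0.12 in both. *Mgll*, the monoacylglycerol lipase, had levels of 10.67 on cKO-CT and 11.14 on cKO-HFD, and *Hcar2*, the niacin receptor that restrains lipolysis, had 7.36 and 6.85. Of 15 triglyceride synthesis genes 2 were lower, *Pck1*, which makes glycerol 3-phosphate in fat (-0.67), and *Gpam*, the mitochondrial acyltransferase (-0.59), the second of which no longer passed after cyclic loess or quantile normalization. In WT 7 of the 15 were lower. Among 19 uptake and storage genes, *Cidea* and *Fitm1* were lower and none was higher. *Fitm1*, a droplet protein enriched in muscle, moved with the muscle markers, lower by a log2 ratio of -0.81 in cKO and higher by 1.57 in WT.

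Cholesterol synthesis was not lower as a group in cKO. Its 20 genes had a median of 0.07 in cKO, with *Hmgcs1*, the cytosolic HMG-CoA synthase, higher by 0.72 and *Fdft1*, squalene synthase, lower by -0.77. In WT the median was -0.39 and 7 genes were lower. *Hmgcs1* stood at 8.65 on cKO-CT, 9.38 on cKO-HFD, 8.69 on WT-CT and 8.91 on WT-HFD, so cKO-HFD was the highest, though within 1.5-fold of WT-HFD. Of all 20 genes, 16 had a ratio in cKO above that in WT.

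Insulin signalling and glucose handling were lower at a few points. Of 26 genes 5 were lower and none was higher (median -0.24). *Irs2*, an adaptor of the insulin receptor, had levels of 8.61 on cKO-CT, 7.38 on cKO-HFD, 8.21 on WT-CT and 7.77 on WT-HFD, so that the highest and the lowest values were both in cKO. *Slc2a4*, the insulin-responsive glucose transporter GLUT4, had a log2 ratio of -0.65 in cKO and -0.69 in WT, and *Hk2*, hexokinase 2, had -0.68 and -0.95. *Pfkm*, the muscle phosphofructokinase, had -1.30 in cKO and 1.36 in WT and followed the muscle markers. *Pgk1* passed by little (-0.62) and not after cyclic loess or quantile normalization. Among 22 adipogenic, lipogenic and clock regulators 3 were lower, all of the clock: *Bhlhe40* (DEC1) had levels of 8.15 on cKO-CT and 6.59 on cKO-HFD, its partner *Bhlhe41* (DEC2) a log2 ratio of -0.97, and *Dbp*, an output gene of the clock, -0.92. In WT their ratios were -0.96, -0.54 and -0.29, and the hour of sampling was not given in the sources used here.

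Leptin and some imprinted genes were higher. *Lep*, the leptin gene, had levels of 11.73 on cKO-CT, 12.54 on cKO-HFD, 10.72 on WT-CT and 12.06 on WT-HFD, and thus a log2 ratio of 0.80 in cKO and 1.35 in WT. *Mest*, an imprinted gene that follows fat expansion, had levels of 11.0 on cKO-CT, 12.08 on cKO-HFD, 10.06 on WT-CT and 11.54 on WT-HFD. *Peg3*, a paternally expressed zinc finger gene, was 3.11-fold higher on cKO-HFD, with levels of 8.55 and 10.19. *Zim1*, which lies next to *Peg3*, had 5.59 on cKO-CT and 7.30 on cKO-HFD, and *Peg10* had a log2 ratio of 0.69. These were the 4 higher genes of 18 imprinted genes, while 9 of the 18 had a ratio below 0 and the median of the list was 0.02. *Slc38a4*, an amino acid transporter, was the only lower one, and its level on cKO-HFD lay below background (at least 1.14-fold lower). In WT 4 of the list were higher and none was lower.

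Several of the highest ratios belonged to genes that were also higher on WT-HFD. *Lipf*, gastric lipase, had a level of 7.15 on cKO-CT, 9.29 on cKO-HFD, 5.65 on WT-CT and 7.84 on WT-HFD. *Oxtr*, the oxytocin receptor, had 7.23, 9.11, 6.33 and 7.91 on the same arrays in the same order. *Slc5a7*, the high-affinity choline transporter, had 6.63, 8.28, 5.18 and 7.50. For each of the trio WT-CT was the lowest, followed by cKO-CT, then WT-HFD, and cKO-HFD was the highest. They are the only higher genes of the 19 on the mammary list. That list was drawn up with earlier results of these data known, so the count does not describe mammary cells. The casein genes that define milk-producing cells, such as *Csn2* (4.51 on cKO-CT and 4.70 on cKO-HFD), were below background. *Trp53inp2*, an autophagy regulator, and *Slc6a13*, a GABA and taurine transporter, followed with log2 ratios of 1.03 and 1.07 in cKO and of 1.31 and 1.16 in WT. *Atp2a3*, a calcium pump, had 1.03 in cKO and 0.95 in WT.

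Other high ratios had no counterpart in WT. *Apoa4*, an apolipoprotein of intestine and liver, had a level of 5.65 on cKO-CT, 7.75 on cKO-HFD, 5.79 on WT-CT and 5.73 on WT-HFD. *Apoa1*, which lies beside it in the genome, had 6.81, 7.71, 6.69 and 6.59 on these arrays. In both genes cKO-HFD alone stood apart. *Alb*, the albumin gene, was lower on HFD in both genotypes. It had levels of 9.77 on cKO-CT, 7.73 on cKO-HFD, 10.18 on WT-CT and 8.54 on WT-HFD. Of 18 liver genes 2 were higher in cKO and 4 lower, and only 8 were above background on a cKO array. The lower ones were *Alb*, *Mup3* (at least 2.14-fold), *Serpina1c*, which fell below background, and *Ahsg*, below it on all arrays. *Paqr9* had a log2 ratio of 1.03 in cKO and 0.13 in WT. *Sptlc3*, a subunit of the enzyme that starts ceramide synthesis, was at least 2.11-fold higher on cKO-HFD and was the only one of 24 ceramide and sphingolipid genes past 1.5-fold, while it lay at 4.89 on WT-CT and 5.09 on WT-HFD, below background.

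**Figure D3:**
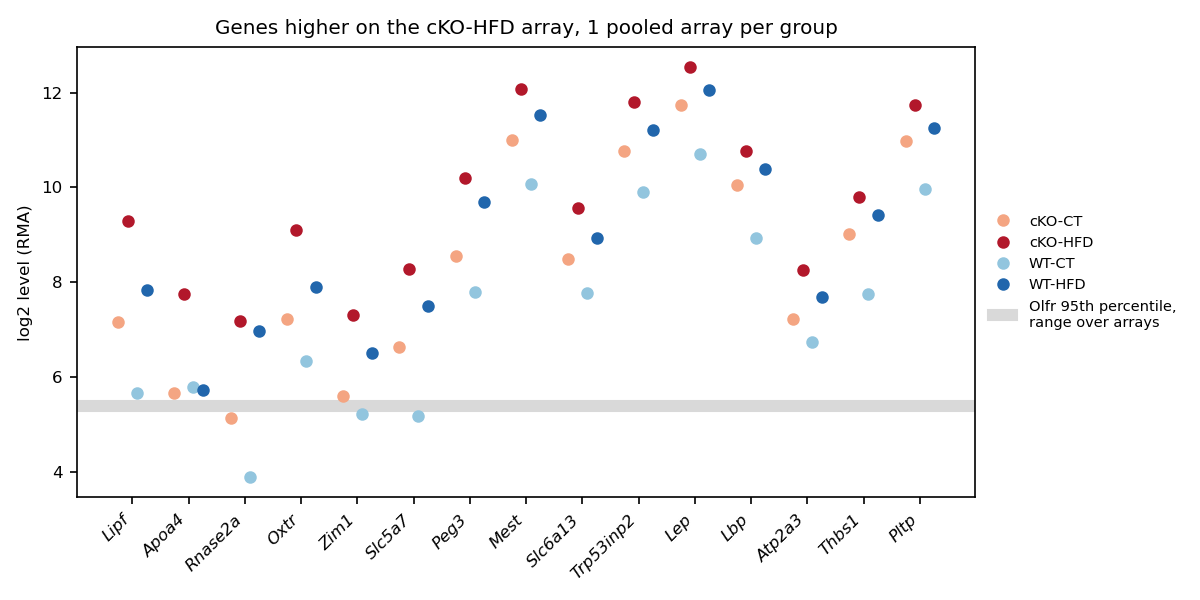
Log2 level (RMA) on the 4 arrays of 15 genes that were higher on cKO-HFD than on cKO-CT, 1 point per pooled array, with a grey band for the range over arrays of the 95th percentile of the *Olfr* genes. The cKO-HFD point is the highest for every gene, WT-HFD lies above WT-CT for all but *Apoa4*, and *Apoa4* is near background on the other 3 arrays.

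Adipokines were split. Beside *Lep*, *Apln*, which encodes apelin (0.77), and *Sfrp5*, a secreted Wnt inhibitor (0.61), were higher. *Agt*, the angiotensinogen gene, had levels of 8.26 on cKO-CT, 7.0 on cKO-HFD, 8.56 on WT-CT and 7.63 on WT-HFD. *Dpp4* (-1.24) and *Nrg4* (-0.60) were also lower, *Nrg4* not after cyclic loess or quantile normalization. Among 19 acute phase and lipopolysaccharide genes, *Lbp*, which presents bacterial lipopolysaccharide to CD14, was higher, with 10.05 on cKO-CT, 10.76 on cKO-HFD, 8.93 on WT-CT and 10.39 on WT-HFD. *Cp*, ceruloplasmin, was lower by a log2 ratio of -0.78, and *Lcn2*, lipocalin 2, was at least 1.48-fold lower.

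None of the 25 pan-macrophage and myeloid genes passed 1.5-fold between the cKO arrays. Of these, 19 had a ratio below 0 and the median was -0.14, whereas in WT 13 were higher, none was lower and the median was 0.67. Of the 25, 22 had a lower ratio in cKO than in WT. The median level of the list was 7.64 on cKO-CT, 7.43 on cKO-HFD, 7.09 on WT-CT and 7.95 on WT-HFD, so that cKO-CT lay between the WT arrays and WT-HFD was the highest. *Adgre1*, the classical marker of tissue macrophages, had levels of 7.25 on cKO-CT, 6.94 on cKO-HFD, 6.65 on WT-CT and 7.54 on WT-HFD. *Cd68*, a lysosomal macrophage marker, had 8.32, 8.61, 7.66 and 8.98 on these arrays, and *Itgax*, which encodes CD11c, had 5.43, 5.75, 4.82 and 5.99. *Mrc1*, the mannose receptor of resident macrophages, had a log2 ratio of -0.13 in cKO and 0.75 in WT. On the control diet 9 of the 25 genes were higher on cKO-CT than on WT-CT, and on HFD 5 were lower on cKO-HFD than on WT-HFD.

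Most genes of each related myeloid list also had a lower ratio in cKO than in WT. Of 23 genes of lipid-associated macrophages and lysosomes this held for 19, but the list did not lean lower in cKO. There 15 of the 23 had a ratio above 0 and the median was 0.04, against 0.24 in WT. *Mmp12*, macrophage elastase, was the only gene of the list called higher in cKO (0.73), against 7 in WT. *Trem2*, the lipid receptor of these cells, had 0.52 in cKO and 0.72 in WT. In the list of resident and alternatively activated macrophages, *Rnase2a*, an eosinophil-associated ribonuclease, was at least 3.73-fold higher on cKO-HFD, with 7.18 there and 6.97 on WT-HFD, and *Pltp*, phospholipid transfer protein, was higher by a log2 ratio of 0.76. *Cd209f*, a lectin of resident cells, was lower by -0.92. The list of 18 had a median of -0.18 in cKO and 0.43 in WT. MHC class II, through which antigen is presented, had 0 of 9 genes past 1.5-fold in cKO and 4 higher in WT. *Cd74*, its invariant chain, had levels of 10.76 on cKO-CT, 10.65 on cKO-HFD, 10.02 on WT-CT and 10.84 on WT-HFD.

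Among 29 chemokines and cytokines, *Ccl2*, which draws monocytes, was higher in both genotypes, with 5.94 on cKO-CT, 6.83 on cKO-HFD, 5.63 on WT-CT and 6.33 on WT-HFD. *Cxcl13*, which draws B cells, differed in sign, with 6.86 on cKO-CT, 5.74 on cKO-HFD, 6.39 on WT-CT and 7.63 on WT-HFD. *Ccl3* passed by little from below background (at least 1.20-fold) and not after centring, cyclic loess or quantile normalization, and *Il18* was below background on all arrays, as was *Il1b*. No T and NK cell gene of 16 and no B cell gene of 11 passed 1.5-fold. Only 5 and 2 of them were above background on a cKO array, and *Cd3g*, a chain of the T cell receptor complex, was below it on all 4.

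Complement genes leaned lower in cKO and higher in WT. Of 17 genes 5 were lower on cKO-HFD and none was higher, with a median of -0.42, against 5 higher, none lower and 0.42 in WT, and 16 of 17 had a ratio in cKO below that in WT. *C7*, a part of the membrane attack complex made by stromal cells, had levels of 10.22 on cKO-CT, 8.95 on cKO-HFD, 10.22 on WT-CT and 9.70 on WT-HFD. *C1ra*, a protease of the first component, had a log2 ratio of -0.81, *C2* of -0.80 and *C4b* of -0.59, the last of which did not pass after cyclic loess. *Vsig4*, a complement receptor, was below background on all arrays. Interferon-stimulated genes leaned lower in cKO, with 17 of 21 below 0 and 3 lower: *Usp18* (-0.82), *Ifit3* (-0.65) and *Rsad2* (-0.61). In WT these had 0.05, -0.08 and -0.11. The list did not lean clearly in WT, where its median was 0.05 and no gene passed 1.5-fold.

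**Figure D4:**
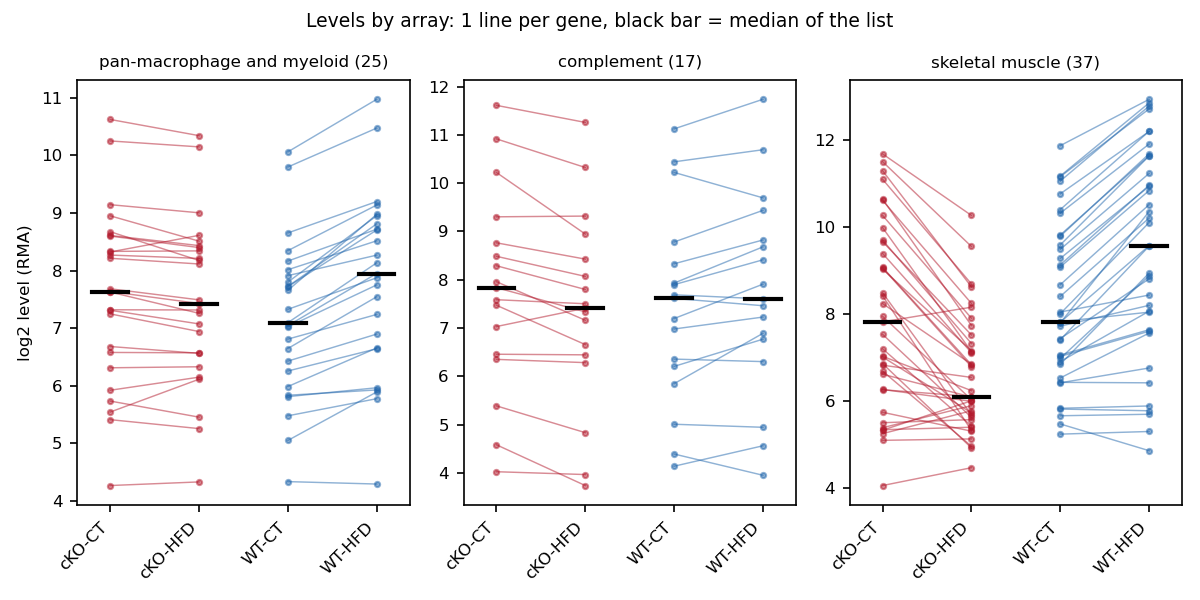
Log2 level (RMA) of the genes of 3 lists on the cKO arrays (red) and the WT arrays (blue), 1 line per gene from CT to HFD and a black bar for the median of the list. The macrophage median goes from 7.64 to 7.43 in cKO and from 7.09 to 7.95 in WT, and the skeletal muscle median from 7.82 to 6.10 in cKO and from 7.82 to 9.57 in WT.

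A few matrix genes were higher. Of 31 collagen and other matrix genes 23 had a ratio above 0 in cKO, 3 were higher, none was lower and the median was 0.27. In WT 17 were higher and the median was 0.62, and the difference between genotypes was not tested. *Thbs1*, thrombospondin 1, had levels of 9.01 on cKO-CT, 9.80 on cKO-HFD, 7.75 on WT-CT and 9.42 on WT-HFD. *Tnc*, tenascin C, had a log2 ratio of 0.67 and *Postn*, periostin, of 0.66, and *Lox*, which crosslinks collagen, had 0.48. All of them were highest on cKO-HFD, and 7 of the 31 genes were already higher on cKO-CT than on WT-CT. Among 18 proteases and inhibitors *Adam12* passed beside *Mmp12*, with 0.61 in cKO and -0.17 in WT, though not after centring. *Timp2* and *Timp4*, inhibitors of matrix proteases, had -0.51 and -0.52.

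Vessels and stroma gave few calls. Of 22 endothelial genes 16 had a ratio above 0 (median 0.19) and none passed 1.5-fold. *Cdh5*, VE-cadherin, had levels of 10.63 on cKO-CT and 11.01 on cKO-HFD, *Nos3*, the endothelial nitric oxide synthase, had 7.47 and 7.95, and *Lyve1*, of lymphatic vessels and resident macrophages, had 8.52 and 8.05. Of 20 hypoxia and angiogenesis genes *Vegfa*, the main vessel growth factor, was lower by a log2 ratio of -0.74 in cKO and -0.58 in WT, and *Angpt1* was at least 1.71-fold lower. Of 20 stromal progenitor genes 3 were lower, and these differed in sign between genotypes. *Dpp4*, which marks interstitial progenitors, had levels of 7.60 on cKO-CT, 6.36 on cKO-HFD, 7.27 on WT-CT and 7.75 on WT-HFD. *Pi16*, of the same cells, had 8.61, 7.69, 8.02 and 9.27, and *Cd24a* had 7.55, 6.61, 6.85 and 8.27 on the arrays in that order. The other progenitor genes did not pass, and the median of the list was -0.05 in cKO and 0.37 in WT.

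Of 25 cell cycle genes 22 had a ratio above 0 (median 0.25), against a median of 0.15 over *Olfr* genes. Only 13 were above background on a cKO array, 10 on cKO-CT and 12 on cKO-HFD. Their median was 0.37, but some entered only through cKO-HFD, which can raise it by construction. At a mean level of at least 7, with fewer members left, the list median was -0.23. The 3 that passed, *Ccna2*, *Ccne2* and *Prc1*, lay below background on cKO-CT. *Ccne2* and *Prc1* lay below it on all 4 arrays, and *Prc1* did not pass after cyclic loess. *Cdk1*, the mitotic kinase, had levels of 5.79 on cKO-CT and 6.31 on cKO-HFD. The keratinocyte list, with 4 genes higher and 1 lower of 14, was near background as well, as *Krt79* (5.54 and 6.25) shows. Of 12 nerve genes 2 were higher and 1 lower, and *Mbp*, a myelin protein, had 7.60 and 7.24. No salivary gland gene passed.

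Of the stress and lipid mediator lists, antioxidant genes were mostly below 0 (24 of 27). *Gpx3*, the secreted glutathione peroxidase, had levels of 10.87 on cKO-CT, 9.42 on cKO-HFD, 10.94 on WT-CT and 10.79 on WT-HFD, and cKO-HFD alone stood apart. *Gsta4*, which detoxifies lipid aldehydes, had a log2 ratio of -1.03 in cKO and -1.22 in WT, while *Sod3*, the extracellular superoxide dismutase, was higher by 0.66. Of 21 endoplasmic reticulum stress genes *Chac1* was lower (-0.65), and none of 24 immediate early genes passed. None of 21 genes of N-acylethanolamine and 2-AG metabolism passed 1.5-fold between the cKO arrays: *Dagla*, which makes 2-AG, had 6.63 and 6.06, and *Naaa*, which breaks down N-acylethanolamines, had 9.17 and 8.97. *Cnr1*, the cannabinoid receptor, was below background on all 4 arrays. Of 23 eicosanoid genes *Ptges*, the inducible prostaglandin E synthase, was lower, with a log2 ratio of -0.64 in cKO and -1.21 in WT, and *Hpgds* was below background on all arrays.

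Of the 45 lists, skeletal muscle genes gave the largest contrast with WT. Of 37 genes 24 were lower on cKO-HFD and 1 was higher, with a median of -1.77, and 25 were higher and 1 lower on WT-HFD, with a median of 1.59. All 24 lower genes were among those higher in WT. *Myh4*, the myosin of fast fibres, had levels of 10.64 on cKO-CT, 7.73 on cKO-HFD, 10.40 on WT-CT and 12.20 on WT-HFD. *Ckm*, muscle creatine kinase, had 11.29, 8.62, 11.05 and 12.78, and *Pygm*, muscle glycogen phosphorylase, had 9.98, 7.13, 9.59 and 11.63 on these arrays. *Mylk4*, a myosin light chain kinase, was at least 7.55-fold lower on cKO-HFD. *Mybpc2*, *Myoz1* and *Tmod4*, parts of the sarcomere, had log2 ratios of -2.80, -2.42 and -2.44. The list median was 7.82 on both CT arrays, 6.10 on cKO-HFD and 9.57 on WT-HFD, although 7 of the 37 genes were lower and 1 was higher on cKO-CT than on WT-CT. Above background were 34 list genes on cKO-CT and 29 on cKO-HFD. *Tnnc1*, of slow fibres and heart, was the higher one (0.68). *Des*, *Tpm1* and *Tpm2*, the 3 lower genes of 16 in the smooth muscle list, are shared with skeletal muscle and had -1.41, -1.45 and -1.32 in cKO and 1.44, 1.86 and 1.72 in WT, while *Synpo2* was higher by 0.62 in cKO.

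Over all genes, the cKO and WT diet lists overlapped in part. Of the higher genes 53 were shared, 14.6% of the cKO list and 8.40% of the WT list, and of the lower genes 117 were shared, 27.1% and 22.0%. Another 94 genes were lower in cKO and higher in WT, 21.8% of the lower cKO genes and 14.9% of the higher WT genes, and the 24 muscle genes are among them. Going the opposite way were 8 genes, 2.21% of the higher cKO genes and 1.5% of the lower WT genes. None of them had a log2 level of 7 or more on any array. Across all 19938 genes, 3.16% were higher and 2.67% lower in WT, and 1.82% were higher and 2.17% lower in cKO. The shares of these 8 genes lay near the shares across all genes, and the other overlaps lay above theirs. The log2 ratios in cKO and WT had a Pearson correlation of 0.11 across all 19938 genes. It was 0.15 across the 12486 genes above background on any array and 0.24 across the 6057 genes that reached 7 on any array. Without the 94 genes the values were 0.33 across 12392 genes above background on any array and 0.53 across 5976 that reached 7, but those genes were picked for their opposite signs, which raises the value by construction. These are descriptions across genes, which are not independent and include the muscle genes, and no array is shared between the ratios.

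**Figure D5:**
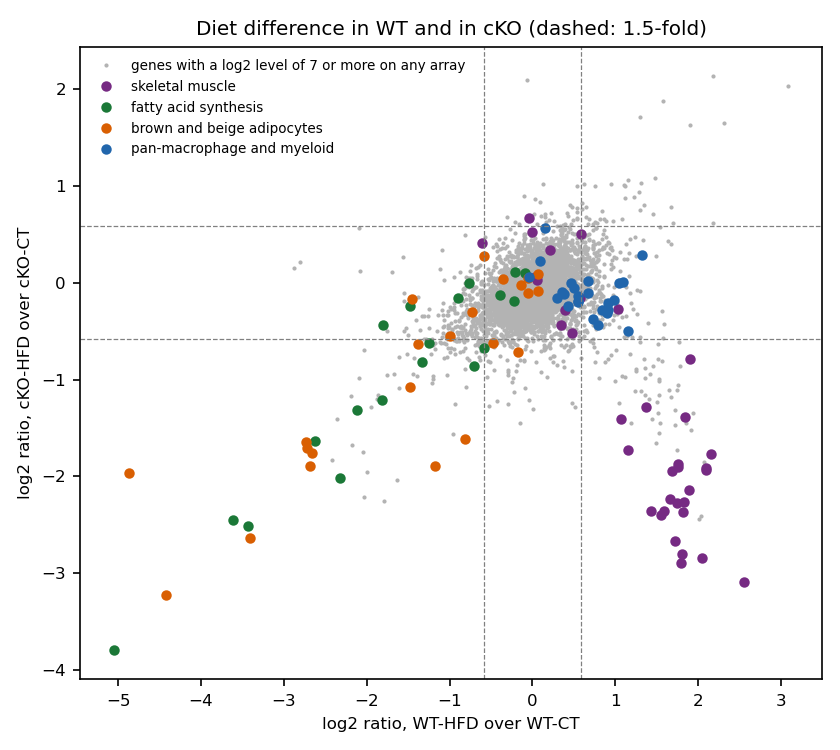
Log2 ratio of WT-HFD over WT-CT (x axis) against cKO-HFD over cKO-CT (y axis) for the 6057 genes that reached a level of 7 on any array (grey), with members of 4 lists coloured and 1.5-fold as dashed lines. Fatty acid synthesis and brown fat genes lie at the lower left, skeletal muscle genes at the lower right, and macrophage genes to the right of 0 on the x axis and about 0 on the y axis.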

How the data were processed

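Pooled RNA of SAT was hybridized to Affymetrix MoGene 1.0 ST arrays, 1 per genotype and diet. The authors deposited RMA values, log2 levels for each probe set (background correction, quantile normalization and summary over probes), with Affymetrix Expression Console per the labels' processing notes. Depth has no meaning for arrays, and their number limits the precision. Of 35556 probe sets, 21789 carry 1 gene name in the platform annotation, 1621 several and 12146 none, and those without a single name were not named. Probe sets naming the same gene alone were averaged (999 of 19938 genes have more). No detection filter was applied. A bound ("at least") was taken from the higher array to the *Olfr* percentile of the lower one. Linear levels were summed for muscle genes. The comparisons have no test, since a group is 1 array.

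Gene lists (45, with 905 of 977 symbols measured, 11 through a synonym) and the comparison itself were chosen with earlier results of these data known. Named genes are *Napepld*, the 12 largest ratios each way among genes that reach a level of 7, up to 4 members per list by size of ratio above background, members of counts of 5 or fewer, the 6 largest differences each way between the diet differences (the acinar genes *Cpa1*, *Ctrb1*, *Rnase1* and 2210010C04Rik among them, with no call in cKO), and genes the study names. *Acss2*, *Acacb*, *Pank1*, *Scd1*, *Scd2*, *Fads1*, *Elovl5*, *Mlxipl*, *Srebf1*, *Fabp3*, *Adipoq*, *Plin1*, *Cdh5*, *Csn2*, *Naaa* and *Cnr1* fall outside these rules and were chosen after seeing their values. Alternatives were the brightest probe set, median centring, cyclic loess (span 0.7, 3 iterations), quantile normalization, filters on low levels, probe sets counted one by one, a 2-fold size and leaving out other-tissue and receptor genes. A further one, without genes lower in cKO and higher in WT, was chosen after seeing the data. Only the step that calls genes at 1.5-fold was run on simulated data, with changes set larger than that size. Promoters came from RefSeq. Python 3.11.15 (numpy 2.4.6, pandas 2.3.3, matplotlib 3.10.9) and R 4.3.3 (limma 3.58.1) were used.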

Additional observations from a re-analysis of the deposited data

Results flagged for a closer look

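Results were marked where the diet differences in cKO and WT had opposite signs past 1.5-fold, and none of these differences was tested, as each group is 1 array. The median log2 ratio of the skeletal muscle list was lower in cKO than in WT by a difference of -3.36. Among single genes, the cKO diet difference minus the WT diet difference was -5.65 for *Mylk4*, -4.89 for *Pygm*, -4.70 for *Myh4*, -4.60 for *Mybpc2*, -4.45 for *Myoz1* and -4.45 for *Tmod4*, all genes of the sarcomere or of muscle metabolism.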

How the results depend on the processing

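No paired analysis was possible because each group is 1 pooled array. No called gene changed sign under any alternative run, whereas list medians did under at least 1 alternative for acute phase, imprinted genes, N-acylethanolamine metabolism, cell cycle, salivary gland and stromal progenitors (shifts over 0.1) and for adipokines, chemokines, hypoxia and adipocytes (smaller shifts). The 362 higher genes became 162 with genes above the *Olfr* background, 56 at a mean level from 7 up, 1564 with probe sets counted one by one and 37 at 2-fold, and the 432 lower genes became 188 at that level, 1459 with probe sets and 112 at 2-fold. They stayed within 1.5 times under the other alternatives, 251 to 373 higher and 338 to 499 lower. With genes above the *Olfr* background, list medians moved by over 0.1 for brown and beige adipocytes (-1.08), acute phase (-0.035), imprinted genes (-0.076), cell cycle (0.37), N-acylethanolamine metabolism (-0.15), skeletal muscle (-1.87), liver (-0.44) and mammary genes (0.31). That filter also keeps genes above background only on the array where they are higher, which can move a median away from 0 by construction. At a mean level of at least 7 they moved for brown and beige adipocytes (-1.35), imprinted genes (-0.11), T and NK cells (0.24), stromal progenitors (0.067), cell cycle (-0.23), N-acylethanolamine metabolism (-0.11), skeletal muscle (-2.28), liver (-0.35), mammary (1.77), salivary (-0.42) and nerve genes (-0.23), with fewer members left. The mammary value of 1.77 came largely from *Lipf*, *Oxtr* and *Slc5a7*, listed with earlier results of these data known. Cyclic loess moved liver (-0.15), keratinocyte (0.20) and mammary genes (0.086). Of 208 named genes, 10 lost their call after cyclic loess, 6 after quantile normalization and 2 after centring. Signal near background limits the lists of lymphocytes, cell cycle, liver, keratinocyte, salivary and acinar genes.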
